A study of Arabidopsis thaliana with 8 samples.

Results

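Heat shock factors are transcription factors that bind heat shock elements, inverted repeats of GAA in promoters, and switch on chaperone genes when proteins unfold. In Arabidopsis the HSFA1 factors are present before stress, are held inactive by HSP70 and HSP90 chaperones, and start the response. They induce a further set of activators (HSFA2, HSFA3, HSFA7A, HSFA7B) that prolong it, and HSFA6B links the response to abscisic acid, the hormone of water deficit. MBF1C is a transcriptional coactivator (a multiprotein bridging factor) known for its part in thermotolerance. The 10 genes described here were HSFA1A (AT4G17750), HSFA1B (AT5G16820), HSFA1D (AT1G32330), HSFA1E (AT3G02990), HSFA2 (AT2G26150), HSFA3 (AT5G03720), HSFA6B (AT3G22830), HSFA7A (AT3G51910), HSFA7B (AT3G63350) and MBF1C (AT3G24500). They were taken by gene identifier from a table of 27655 genes, and each of the 10 was found in it.

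The samples were whole seedlings of Arabidopsis thaliana, accession Columbia (Col-0), grown for 7 days at 22 °C. They were Col-0 wild type or the T-DNA insertion line prp43a (allele prp43a-1), which the series title describes as affecting a component of splicing disassembly. Seedlings of each genotype were either left untreated or held at 38 °C for 16 h, with 2 libraries in each of the 4 groups, labelled as biological replicates. The mutant is a single insertion line, and no complemented line was analysed here. Values are TPM, a transcript share corrected for gene length, so levels of different genes can be compared with each other.

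Counts worked back from TPM and gene length gave totals between 4071034 and 4783628 per library, so a single read was worth 0.152 to 0.375 TPM for these genes. AT3G62310, looked at as a check of the genotype although the annotation used here does not pair it with the name PRP43a, stood at 26.7 and 29.8 TPM in wild-type control and at 1.68 and 1.44 TPM in prp43a control (limma adjusted p = 2.3e-05). After heat it stood at 64.6 and 72.4 TPM in wild type and at 10.3 and 8.24 TPM in prp43a. The other locus looked at, AT2G47250, had 34.6 and 32.1 TPM in wild-type control and 49.8 and 54.1 TPM in prp43a control, a difference that did not pass (limma adjusted p = 0.077). Markers of leaf and root were detected, and most of them were lower after heat. In wild type the leaf marker RBCS1A went from 18330 ± 258 to 12000 ± 450 TPM, the leaf marker LHCB2.1 from 4295 ± 128 to 85.8 ± 14.2 TPM and the root marker PYK10 from 1092 ± 24.2 to 129 ± 31.0 TPM (SD, n = 2 each), all called lower in both genotypes. Of 3 seed markers OLEO1 was listed at 0 in each library, CRA1 reached at most 1.18 TPM, and SESA1 was listed at 0 in the 4 control libraries and had 1.70 to 9.22 TPM after heat. SESA1 was called higher in both genotypes, but it entered the test only through its heat libraries, so it had to differ. The part of these marker changes in the heat responses below was not tested. On the second principal component over all tested genes (2.39% of the variance), wild-type control replicate 1 stood apart at 34.2, against 6.43 for replicate 2 and -16.8 and -24.4 for the prp43a controls. In the same library the root hair genes PRP3 and COBL9 were listed at 0, as they also were in some heat libraries. In whole seedlings, fewer cells of a type and less RNA per cell cannot be told apart. The hour of harvest is not given in the sources used here, so time of day and heat cannot be told apart either.

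The promoters of 3 members carried a complete heat shock element directly before the gene, and they are shown because these are the members with the sequence the factors themselves bind. In the stretches below, taken from TAIR10.1 on the strand of the gene and ending at the base before its annotated start, capitals mark each match to a 3-unit element (GAA, TTC and GAA in a row with 2 free bases between neighbours, searched on both strands) or to the 2-unit elements GAANNTTC and TTCNNGAA, which read the same on both strands. The 3-unit element contains both 2-unit elements.
HSFA2 (chr2:11135474-11135623, plus strand): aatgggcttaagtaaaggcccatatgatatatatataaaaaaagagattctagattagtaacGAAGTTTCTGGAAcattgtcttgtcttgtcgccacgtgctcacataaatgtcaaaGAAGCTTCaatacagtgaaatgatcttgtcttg
HSFA7A (chr3:19264941-19265140, plus strand): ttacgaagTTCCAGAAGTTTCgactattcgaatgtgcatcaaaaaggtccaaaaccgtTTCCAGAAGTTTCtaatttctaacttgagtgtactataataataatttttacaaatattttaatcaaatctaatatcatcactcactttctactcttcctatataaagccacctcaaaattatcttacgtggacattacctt
HSFA7B (chr3:23399036-23399235, plus strand): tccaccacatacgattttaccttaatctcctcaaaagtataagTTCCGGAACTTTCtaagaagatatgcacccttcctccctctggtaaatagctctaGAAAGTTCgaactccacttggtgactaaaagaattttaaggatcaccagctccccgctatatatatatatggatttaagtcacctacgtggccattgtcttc

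In the 300 bases before the start, the 3-unit element was found in HSFA2, HSFA7A and HSFA7B, 3 of the 10 members, and in 0.485% of 27438 promoters of the same length. HSFA7A held it at 2 places, which begin 192 and 142 bases before the start and share all 13 letters. HSFA2 held it 88 bases before the start, with a further GAANNTTC at 33, and HSFA7B held it at 157 with a further GAANNTTC at 102. HSFA1E held only a TTCNNGAA, 44 bases before the start, a motif found in 9.38% of promoters. GAANNTTC was found in 11.5% of promoters. The windows of HSFA1A, HSFA1B, HSFA1D, HSFA3, HSFA6B and MBF1C held none of the 3 motifs. Those of HSFA1A, HSFA1B, HSFA3 and MBF1C overlap a neighbouring protein-coding gene, as does that of HSFA2. Of 26 chaperone and other heat-response genes treated below as targets, 4 held the 3-unit element and 14 held any of the 3, against 19.3% of all promoters. Of 16 regulators treated below, 1 held the 3-unit element and 4 held any of the 3. Of 12 other heat shock factors, 0 held the 3-unit element and 1 held any of the 3. These lists were chosen with earlier results of these data known.

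**Figure D1:**
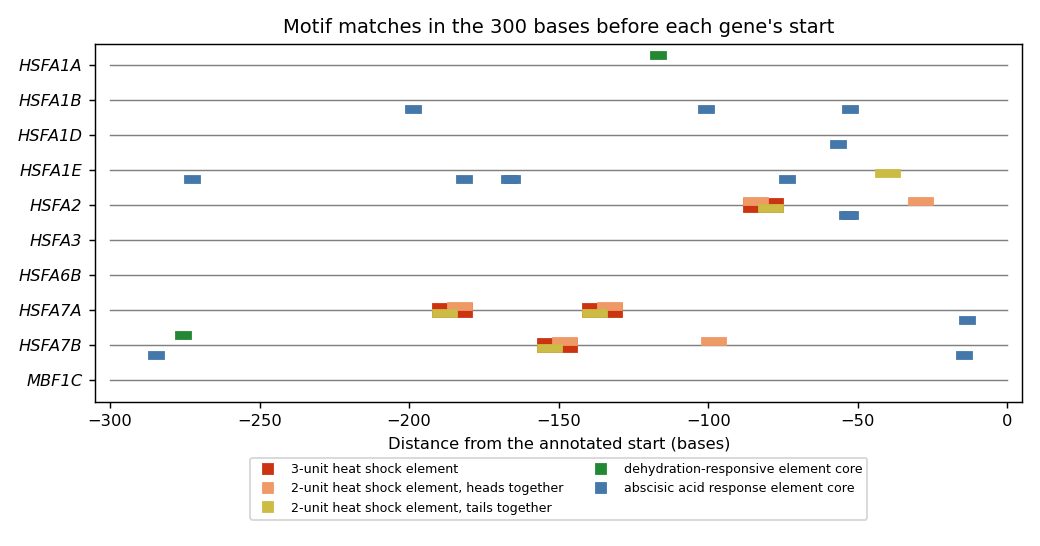
Matches to 5 motifs in the 300 bases before the annotated start of each gene; the horizontal axis is the distance from the start in bases, and each coloured block is a match on either strand. The 3-unit element appears in HSFA2, HSFA7A (at 2 places) and HSFA7B, and the lines of HSFA3, HSFA6B and MBF1C hold no block.

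The core of the dehydration-responsive element, CCGAC, is bound by DREB2 factors, and DREB2A is known to activate HSFA3. In the 300 bases before the start CCGAC was found in HSFA1A and HSFA7B, and in 13.9% of all promoters. The annotated start of HSFA3 lies 643 bases before its coding sequence, so a window of 500 bases before the coding sequence was also searched. There HSFA3 held CCGAC at 2 places, 305 and 138 bases before the coding sequence, and 23.4% of genes held it in such a window. Both sites are shown on the strand of the gene, with capitals for the core, which lies on the opposite strand and so reads GTCGG.
HSFA3 site at 305 (chr5:973974-973998, minus strand): caatttcaatGTCGGttgtacaatt
HSFA3 site at 138 (chr5:973807-973831, minus strand): actacagtttGTCGGttacttcctt
In the same 500-base window MBF1C held GAANNTTC 175 bases and TTCNNGAA 387 bases before the coding sequence, motifs present in 21.0% and 17.5% of genes. HSFA1B and HSFA1D also held GAANNTTC there, at 66 and 139, between the annotated start and the coding sequence. HSFA1A and HSFA7A held CCGAC in this window, at 162 and 119. The abscisic acid response element core ACGTG was found before the start in 6 of the 10 members, against 25.6% of promoters, and HSFA6B was not among the 6. A match is a description of the letters, not of binding.

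The loci lie apart from each other on 5 chromosomes, with HSFA1E, HSFA6B, MBF1C, HSFA7A and HSFA7B on chromosome 3, and hold 2 or 3 separate blocks of exon sequence each. None of the 75-base windows of their exons (933 in HSFA7B to 2030 in HSFA3) occurred at another place of the nuclear chromosomes, so reads of that length that match exactly cannot be shared with a paralog. Overlap with genes on the other strand does occur: 486 bases of HSFA3 with AT5G03710 (0 to 11.0 TPM), 44 bases of HSFA1B with AT5G16830 (27.1 to 43.3 TPM) and 124 bases of MBF1C with AT3G24503 (27.3 to 126 TPM). MBF1C also overlaps AT3G24495 by 22 bases and the antisense RNA AT3G04685 by 176. The strand setting of the counting is not given in the sources used here. Splice forms, which are known for HSFA2, were not analysed here, because the table has 1 value per gene.

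Every one of the 10 genes was higher after heat in wild type, by amounts from less than 2-fold for HSFA1B and HSFA7A to about 68-fold for HSFA3. On the log2(TPM + 1) scale HSFA3, HSFA2, MBF1C and HSFA1E rose most; as plain ratios of mean TPM, HSFA6B (10.8) and HSFA7B (10.45), which rest on 2 and 1 control reads, stood above HSFA1E (9.99) and MBF1C (7.77). In each gene both heat libraries stood above both control libraries. The share of all tested genes with such a separation was not computed, so nothing is read from its being found in each member. The response was tested on log2(TPM + 1) with limma across 19697 genes, and called at a Benjamini-Hochberg adjusted p below 0.05; log2 fold changes below are on that scale, which understates changes of low genes. By this test 42.4% of all tested genes were called higher with heat in wild type, 27.6% lower and 70.0% in either direction, so a call alone is common, and the median gene had a log2 fold change of 0.25. Of the 10 members 8 entered the test on their control libraries alone, and each of the 8 was called higher. HSFA6B and HSFA7B entered only through their heat libraries, so they had to differ. The median of the 8 cannot be read as support for the set, and each gene is given by its own values.

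**Figure D2:**
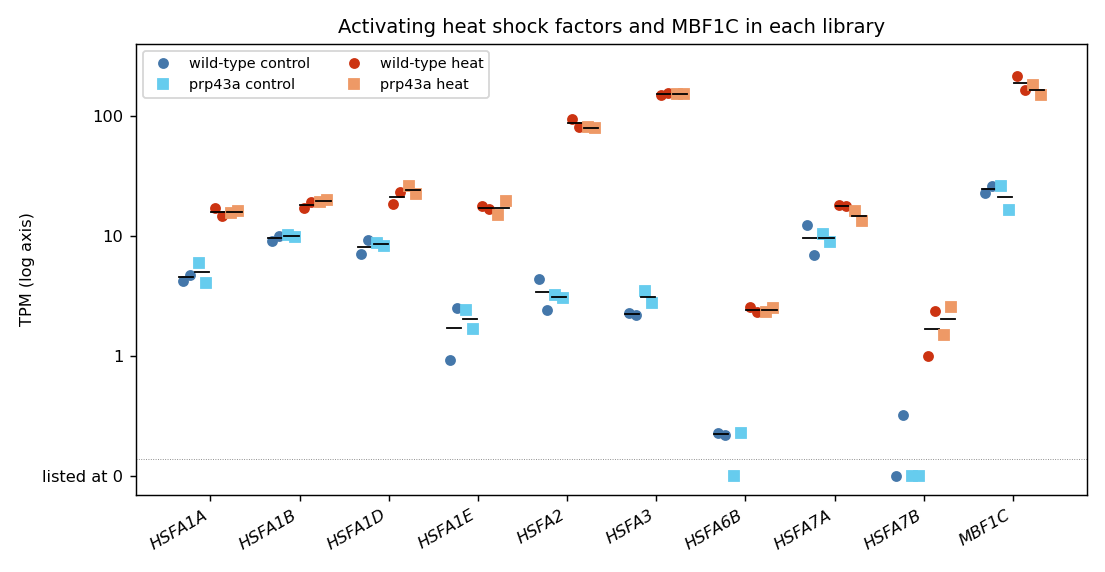
TPM of each gene in each library on a log axis, with values listed at 0 drawn below the dotted line; points are libraries (2 per group), and black bars are group means where no library is at 0. For each gene the 4 heat libraries lie above the 4 control libraries, and within each condition the wild-type and prp43a points lie close together.

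Among the HSFA1 factors, HSFA1A had 4.27 and 4.79 TPM in wild-type control and 17.2 and 14.8 TPM after heat. HSFA1B had 9.12 and 10.12 TPM in control and 17.1 and 19.3 TPM after heat. HSFA1D, which together with HSFA1A and HSFA1B is among the main triggers of the response, had 7.05 and 9.23 TPM in control and 18.7 and 23.3 TPM after heat. In these 3 genes the groups did not overlap, and the lowest heat library was 3.09, 1.69 and 2.03 times the highest control library. HSFA1E, the least abundant HSFA1 factor before heat, had 0.929 and 2.54 TPM in control (5 and 14 reads) and 17.76 and 16.86 TPM after heat (94 and 89 reads).

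The log2 fold change of HSFA1A with heat in wild type was 1.62 (SE 0.20, limma adjusted p = 5.0e-05), and that of HSFA1B was 0.85 (SE 0.15, limma adjusted p = 0.00049). HSFA1D had 1.27 (SE 0.18, limma adjusted p = 0.00013) and HSFA1E had 2.81 (SE 0.29, limma adjusted p = 1.4e-05). In wild type the 95% interval of HSFA1E, 2.15 to 3.46, lay above those of the other HSFA1 factors, which reached at most 2.07. In prp43a the intervals of HSFA1E and HSFA1A overlapped. Over the fits with a library left out, the wild-type value of HSFA1E ran from 2.37 to 3.25. The shares among the HSFA1 transcripts were more even after heat. HSFA1E made up 4.35% to 9.51% of their summed TPM in the 4 control libraries and 19.5% to 25.1% in the 4 heat libraries, while HSFA1B went from 37.1% to 42.7% down to 24.2% to 26.0%.

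HSFA2, the inducible factor that sustains acquired thermotolerance, had 4.402 and 2.427 TPM in wild-type control and 94.8 and 80.6 TPM after heat. HSFA3, which acts with HSFA2 in the memory of heat, had 2.27 and 2.22 TPM in control and 149 and 157 TPM after heat. In both genes the groups lay far apart, the lowest heat library standing 18.3 times above the highest control library for HSFA2 and 65.5 times for HSFA3. The log2 fold change was 4.36 for HSFA2 (SE 0.20, limma adjusted p = 4.7e-08) and 5.57 for HSFA3 (SE 0.13, limma adjusted p = 8.9e-10). Ranked from the highest rise, HSFA3 was number 80 and HSFA2 number 149 of the 19697 tested genes.

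HSFA7A and HSFA7B are close relatives that are themselves induced by the HSFA1 factors, and their levels differed widely. HSFA7A had 12.4 and 6.95 TPM in wild-type control and 18.3 and 17.7 TPM after heat. Its groups did not overlap, but the control libraries differed by more than the heat libraries did, and the log2 fold change was 0.88 (SE 0.23, limma adjusted p = 0.0067). Without wild-type control replicate 2 the call for HSFA7A was lost (log2 fold change 0.50, limma adjusted p = 0.055; 0.00077 to 0.055 over the alternatives). HSFA7B was listed at 0 and at 0.324 TPM in control (0 and 1 read) and at 1.01 and 2.37 TPM after heat (3 and 7 reads).

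The summed reads of HSFA7B were 10.3 times higher after heat in wild type, with a 95% counting interval of 1.47 to 448, and its log2 fold change was 1.18 (SE 0.35, limma adjusted p = 0.012). That call was lost without wild-type control replicate 1 (limma adjusted p = 0.074) and without wild-type heat replicate 2 (limma adjusted p = 0.092; 0.0076 to 0.092 over the alternatives). HSFA6B had 0.228 and 0.222 TPM in control (1 read each) and 2.55 and 2.32 TPM after heat (11 and 10 reads). Its summed reads were 10.8 times higher, with a 95% counting interval of 2.65 to 95.3, and its log2 fold change was 1.49 (SE 0.27, limma adjusted p = 0.00066). Such intervals cover counting error only. With a pseudocount of 0.1 in place of 1, the log2 fold change of HSFA6B was 2.96 and that of HSFA7B 3.01, so their size depends on that constant.

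By mean TPM, MBF1C was the most abundant member in each group. It had 22.9 and 26.1 TPM in wild-type control and 215 and 166 TPM after heat, groups that did not overlap. Its log2 fold change was 2.90 (SE 0.20, limma adjusted p = 6.5e-07). MBF1A and MBF1B, the other members of the bridging factor family, are usually described as less tied to stress. In wild type MBF1A went from 131 ± 10.7 to 854 ± 85.6 TPM and MBF1B from 120 ± 0.702 to 479 ± 55.6 TPM (SD, n = 2 each), log2 fold changes of 2.70 and 1.98 (limma adjusted p = 8.2e-09 and 4.3e-08). In TPM both stood above MBF1C before and after heat.

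The order of levels changed between the conditions. In wild-type control MBF1C came before HSFA7A, HSFA1B and HSFA1D, whose ranges overlapped from one to the next, followed by HSFA1A and HSFA2, whose ranges overlapped, then HSFA3 and HSFA1E, which also overlapped, and last HSFA6B and HSFA7B. After heat in wild type the order was MBF1C, HSFA3 and HSFA2, each apart from the next. HSFA1D, HSFA1B, HSFA7A, HSFA1E and HSFA1A followed with overlapping neighbours between 14.8 and 23.3 TPM, and HSFA6B and HSFA7B again came last. In prp43a control the order was MBF1C, HSFA1B, HSFA7A, HSFA1D, HSFA1A, HSFA2, HSFA3, HSFA1E, HSFA6B and HSFA7B, with overlap between HSFA1B and HSFA7A, between HSFA2 and HSFA3 and between HSFA6B and HSFA7B. In prp43a after heat the ranges of MBF1C and HSFA3 overlapped, and HSFA7A came after the HSFA1 factors.

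Of the summed TPM of the 9 factors, MBF1C left out, the HSFA1 factors made up 52.6% and 68.7% in the wild-type control libraries and 61.6% and 61.3% in the prp43a control libraries. After heat they made up 21.0% and 22.2% in wild type and 23.0% and 23.7% in prp43a, although their own sum went from 24.0 to 72.5 TPM in wild type. HSFA3 took 5.59% to 7.83% of the sum in the 4 control libraries and 44.3% to 47.0% in the 4 heat libraries. HSFA2 took 6.25% to 10.8% before and 24.1% to 28.2% after heat. Control and heat libraries did not overlap in any of these shares. An exact permutation test of 2 against 2 libraries cannot give a p below 0.333, so none is given.

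**Figure D3:**
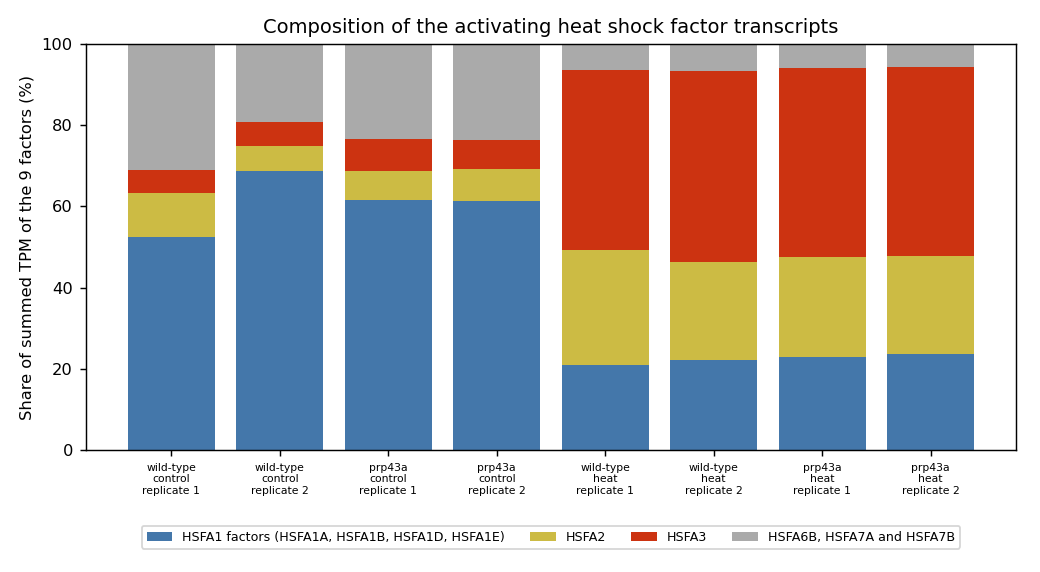
Share of the summed TPM of the 9 heat shock factors held by the HSFA1 factors, by HSFA2, by HSFA3 and by HSFA6B, HSFA7A and HSFA7B together; each bar is a library and adds up to 100%. The HSFA1 share lies above 52% in the control libraries and below 24% in the heat libraries, where HSFA3 holds 44.3% to 47.0%.

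The heat response of prp43a, measured against its own controls, covered the same range. HSFA3 had 3.49 and 2.76 TPM in prp43a control and 155 and 154 TPM after heat. HSFA2 had 3.22 and 3.06 TPM in control and 81.2 and 79.8 TPM after heat. MBF1C had 26.2 and 16.7 TPM in control and 181 and 149 TPM after heat. In each of these genes the heat libraries stood above the control libraries, and the log2 fold changes were 5.24 for HSFA3, 4.30 for HSFA2 and 2.92 for MBF1C (limma adjusted p = 1.3e-09, 5.2e-08 and 6.6e-07).

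Among the HSFA1 factors of prp43a, HSFA1A went from 5.02 ± 1.37 to 15.9 ± 0.306 TPM, HSFA1B from 10.02 ± 0.258 to 19.8 ± 0.599 TPM, HSFA1D from 8.55 ± 0.417 to 24.5 ± 2.76 TPM and HSFA1E from 2.05 ± 0.537 to 17.2 ± 3.31 TPM (SD, n = 2 each). Each was called higher, with log2 fold changes of 1.51, 0.92, 1.41 and 2.58 (limma adjusted p of 2.7e-05 to 0.0003). HSFA6B had 0 and 0.228 TPM in control and 2.31 and 2.52 TPM after heat, 22.0 times more reads with a 95% counting interval of 3.50 to 914. HSFA7B was listed at 0 in both control libraries and had 4 and 7 reads after heat, 4.24-fold higher when 3 reads are put in place of 0 over the control group. That ratio leaves out the counting error of the heat reads and is no lower bound. HSFA6B and HSFA7B were both called higher (limma adjusted p = 0.00036 and 0.0023).

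HSFA7A had 10.4 and 8.98 TPM in prp43a control and 16.1 and 13.4 TPM after heat. The groups did not overlap, but its log2 fold change of 0.55 (95% interval 0.03 to 1.07) did not pass the limma test (adjusted p = 0.055; 0.015 to 0.34 over the alternatives). It passed with a pseudocount of 5 and in 4 other settings, and under median-of-ratios scaling its log2 fold change was 0.26. In prp43a 9 of the 10 members were thus called higher, among them HSFA6B and HSFA7B, which had entered the test only through their heat libraries. Of all tested genes 43.1% were called higher, 27.0% lower and 70.1% in either direction, so nothing is read from the members' count. Scaling the libraries by median ratios moved the median of all genes with heat to -0.00 in wild type and the share of higher genes among those called from 60.5% to 49.6%. Under that scaling the smallest log2 fold change among the members in wild type was 0.59, for HSFA1B (limma adjusted p = 0.0039), and the 10 calls in wild type held.

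**Figure D4:**
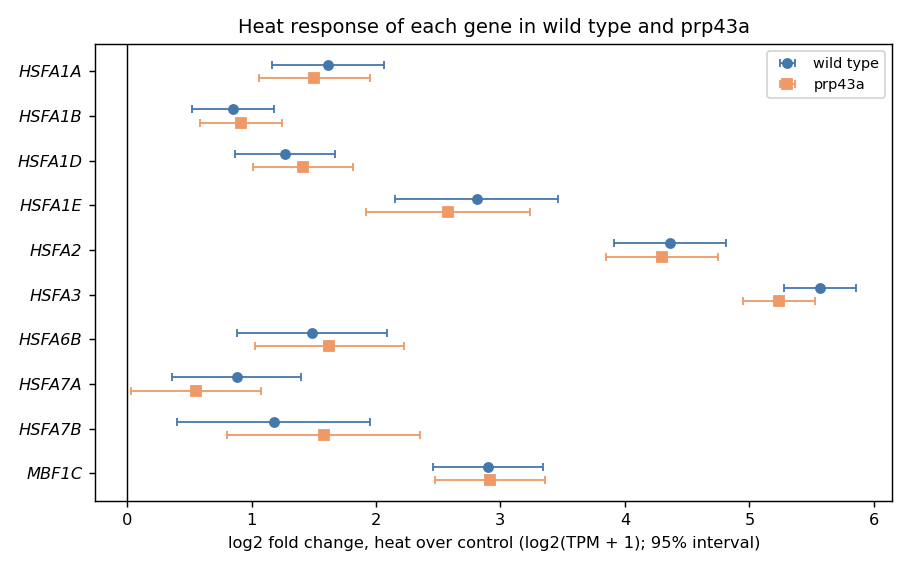
Log2 fold change with heat on the log2(TPM + 1) scale for each gene, in wild type (circles) and prp43a (squares), with 95% intervals from the fit over all 8 libraries (2 per group). HSFA3 and HSFA2 stand farthest to the right at 5.57 and 4.36 in wild type, and for each gene the intervals of both genotypes overlap.

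Whether the heat response differed between genotypes was tested as the difference of the 2 responses. None of the 10 members passed the limma test (adjusted p of 0.83 to 0.996), none had an unadjusted p below 0.05, and none passed with voom on recovered reads; 0.0102% of all tested genes were called. The differences, prp43a minus wild type on the log2 scale, ran from -0.33 for HSFA3 (95% interval -0.74 to 0.08) to 0.40 for HSFA7B (-0.70 to 1.499). For HSFA2 the difference was -0.06 (-0.70 to 0.57), for MBF1C 0.02 (-0.61 to 0.64), and for HSFA1B 0.06 (-0.40 to 0.53). HSFA1E had -0.23 (-1.16 to 0.70) and HSFA7A -0.33 (-1.06 to 0.41). On the TPM + 1 scale a difference as large as 2-fold lies inside the intervals of HSFA1E, HSFA7A and HSFA7B, and outside those of HSFA1A, HSFA1B, HSFA1D, HSFA2, HSFA3 and MBF1C. That scale understates differences of genes low in control, so no limit in plain TPM is read from these intervals. HSFA3, at 2.22 to 3.49 TPM in control, rose 68.2-fold in wild type and 49.3-fold in prp43a as ratios of mean TPM. For HSFA6B, with at most 1 read per control library, the size of the difference depended on the pseudocount, being 0.14 with a pseudocount of 1 and 0.83 with 0.1, so no such limit is read from its interval.

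At control temperature prp43a did not differ from wild type in any member by the limma test (adjusted p of 0.47 to 0.99), and voom called none; among all tested genes 0.0711% were called. HSFA3 alone had an unadjusted p below 0.05 (0.025, limma adjusted p = 0.47). Its prp43a libraries, at 3.49 and 2.76 TPM (23 and 17 reads), stood above its wild-type libraries, at 2.27 and 2.22 TPM (14 reads each). The ratio was 1.27 on the TPM + 1 scale, with a 95% interval of 1.04 to 1.55. MBF1C had a ratio of 0.860 (0.633 to 1.17), HSFA2 0.962 (0.706 to 1.31) and HSFA1B 1.04 (0.827 to 1.30). In the same groups the root hair gene PRP3 had 0 and 3.44 TPM in wild type and 4.124 and 4.998 TPM in prp43a, and COBL9 had 0 and 0.310 TPM in wild type and 1.04 and 1.11 TPM in prp43a. Neither passed the limma test (adjusted p = 0.50 and 0.42), and their part in the values of the members was not tested.

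After heat no member differed between the genotypes by the limma test (adjusted p of 1), none had an unadjusted p below 0.05, and voom called none; among all tested genes 0.00508% were called. The ratio of prp43a to wild type was 1.01 for HSFA3 (95% interval 0.825 to 1.23), 0.922 for HSFA2 (0.676 to 1.26) and 0.869 for MBF1C (0.640 to 1.18). For the HSFA1 factors it ran from 0.987 for HSFA1E (0.627 to 1.56) to 1.16 for HSFA1D (0.876 to 1.53). HSFA7A had the lowest ratio, 0.826 (0.576 to 1.18).

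**Figure D5:**
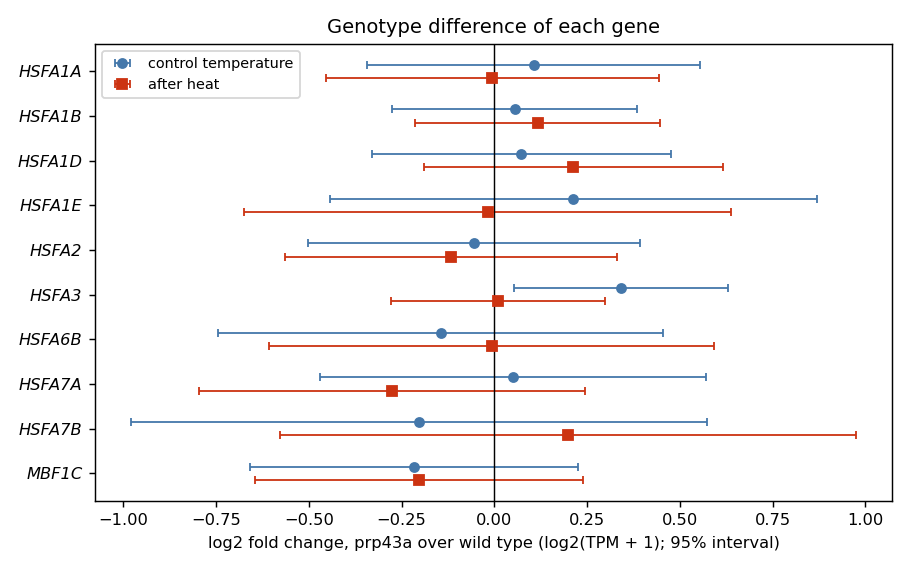
Log2 fold change of prp43a over wild type on the log2(TPM + 1) scale for each gene, at control temperature (circles) and after heat (squares), with 95% intervals from the fit over all 8 libraries (2 per group). All intervals cross 0 except that of HSFA3 at control temperature, which runs from 0.05 to 0.63 and did not pass after adjustment.

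Genes known to control these factors also changed with heat. DREB2A, which activates HSFA3, had 3.70 and 1.27 TPM in wild-type control and 21.2 and 12.6 TPM after heat (log2 fold change 2.41, limma adjusted p = 0.00044). Its relatives DREB2B and DREB2C were near 0 in control (at most 0.769 TPM) and reached 23.4 ± 3.36 and 58.7 ± 6.08 TPM after heat (SD, n = 2 each). HSC70-2, an HSP70 of the kind that holds HSFA1 factors inactive, rose from 18.8 and 16.9 TPM to 137 and 99.3 TPM. Of the 16 regulators listed, 13 were called higher, 2 lower and 1 not at all in wild type, where 42.4% of all tested genes were called higher and 27.6% lower. The median log2 fold change of the regulators was 1.45, beside 0.25 for all tested genes. The list was chosen with earlier results of these data known. DREB2B and DREB2C entered the test only through their heat libraries, and JUB1 only through its wild-type control libraries, so these had to differ. Neither the count nor the median can be read as support for the set. The 2 lower ones were SIZ1, a SUMO ligase, and the NAC factor JUB1, and the other was HSBP, a heat shock factor binding protein at 104 ± 0.937 and 107 ± 6.79 TPM (SD, n = 2 each); these 3 were named after their values were seen. In prp43a 13 regulators were called higher and 1 lower. Under median-of-ratios scaling and under quantile normalization 3 regulators were called lower in wild type, and 1 target.

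The chaperones and other genes that these factors switch on were nearly all higher. In wild type 25 of the 26 targets were called higher and none lower, with a median log2 fold change of 6.13 beside 0.25 for all tested genes. In prp43a all 26 were called higher. Of all tested genes 42.4% were called higher in wild type and 43.1% in prp43a. The targets too were chosen with earlier results of these data known, and APX2 and HSP26.5 entered the test only through their heat libraries. The count and the median cannot be read as support for the set. The largest rises were in small heat shock proteins, with log2 fold changes of 11.22 for HSP21, 10.73 for HSP22, 10.22 for HSP17.6C and 9.97 for HSP17.4. GOLS2, a galactinol synthase, was the target not called in wild type, at 4.34 ± 1.65 and 2.29 ± 0.725 TPM (SD, n = 2 each); it was named after its values were seen. Values of single small heat shock proteins are uncertain, because close copies can trade reads.

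Of 12 other heat shock factors, 10 were tested, and in wild type 4 were called higher, 2 lower and 4 not called, shares near those over all tested genes (42.4% higher, 27.6% lower). Their median log2 fold change was 0.14, beside 0.25 for all tested genes. HSFA8 rose from 1.96 ± 0.403 to 28.7 ± 0.358 TPM and HSFB1, a class B factor, from 23.2 ± 10.2 to 126 ± 22.7 TPM (SD, n = 2 each). HSFC1 rose from 10.2 ± 2.29 to 18.7 ± 2.14 TPM (SD, n = 2 each). HSFA6A, a relative of HSFA6B, had 2.38 and 2.65 TPM in wild-type control and was listed at 0 in each of the other 6 libraries. It entered the test only through its wild-type control libraries, so it had to differ, and nothing is read from its place among the 2 lower factors. Its difference between the genotypes at control temperature had a limma adjusted p of 0.077. No regulator, target or other heat shock factor passed the limma test between genotypes at either temperature, or for the difference of the responses. At control temperature 10 of the 26 targets had an unadjusted p below 0.05, as did 4 of the 10 tested other factors (HSFA6A among them) and 1 of the 16 regulators, against 1760 of the 19697 tested genes. For the difference of the responses the counts were 10, 3 and 1, against 1237 of all tested genes, and after heat they were 0 in each list, against 899. The difference of the responses takes in the same control libraries, so its counts are not separate from those at control temperature. Some targets rest on few control reads, such as APX2 (2 and 4 in wild type, 1 and 1 in prp43a) and HSP21 (3 and 3, and 7 and 6). The lists were also chosen with earlier results known, so nothing is read from these counts. The 26 targets went both ways at control temperature, with log2 fold changes of prp43a over wild type from -1.81 to 0.66 and a median of -0.12. Their summed TPM was 351.5 and 268.4 in the wild-type control libraries and 326.4 and 296.8 in the prp43a control libraries. At control temperature 1 target was called with a pseudocount of 0.1, with quantile normalization and without wild-type control replicate 2, and 1 other factor with no filter and without wild-type control replicate 2.

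For each member the genes outside the set with the most similar pattern were found by the Euclidean distance over the 8 libraries between log2(TPM + 1) values centred on each gene's mean. The nearest to HSFA2 were the HSP70 gene Hsp70b (distance 0.38) and the disaggregase gene HSP101 (0.41), which had 13.2 and 7.81 TPM in wild-type control and 202 and 176 TPM after heat. Nearest to HSFA3 were GRP7 (0.39), which encodes a glycine-rich RNA-binding protein, and the mitochondria-encoded matR (0.47). For MBF1C they were AT4G21570 (0.45) and HIPP27 (0.47), and for HSFA1E AT5G06550 (0.36) and AT5G22100 (0.46). The nearest genes were PHR2 (0.13) and AT1G27595 (0.13) for HSFA1B, AT5G35450 (0.19) and SLK2 (0.19) for HSFA1D, and AT3G16310 (0.20) and HIR1 (0.22) for HSFA1A. For HSFA6B they were SGT1A (0.17) and AT1G23780 (0.18), for HSFA7B AT2G29065 (0.26) and AT1G71460 (0.30), and for HSFA7A MEE60 (0.32) and AT2G45720 (0.33). HSFA6B and HSFA7B had at most 1 read in each control library, and the added 1 shrinks their rise on this scale. In wild type SGT1A went from a mean of 49.35 to 143.7 TPM and AT2G29065 from 1.38 to 4.45 TPM. As ratios of mean TPM, HSFA6B rose 10.8-fold and HSFA7B 10.45-fold, so nearness does not mean an equal rise in plain TPM. Each distance takes in the contrast of heat and control as well as the variation within the groups.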

How the data were processed

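The authors deposited 1 table of TPM for 8 libraries, per the file headers; each column sums to 1000000. Per the submitters' processing notes, the genome build was TAIR10; the sources used here do not name the aligner, the counter, its annotation or its strand setting. Libraries were stranded mRNA libraries with paired 75 bp reads, per the labels' protocols. With exon lengths from TAIR10.1 (27445 rows with a gene model), 99.2% of 126889 values up to 200 reads came out whole within 0.05, which gave reads per gene and library; whether a unit is a read or a pair is unknown.

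The 19697 genes that reached 1 TPM in 2 or more libraries were fitted as log2(TPM + 1) with limma 3.58.1 (R 4.3.3, moderated test with trend), using every library, 4 group means and 4 residual degrees of freedom, for 5 comparisons, each with Benjamini-Hochberg adjustment over all tested genes. Nothing says that replicates were grown separately beyond the word biological in the labels. The members and the lists of regulators, targets, other factors and markers were chosen with earlier results of these data known. Named by rule were all members, up to 4 called genes per list with the largest change with heat in wild type, the 2 nearest genes of each member, and the loci and markers checked; SIZ1, JUB1, HSBP and GOLS2 are outside this rule, their naming having followed a look at their values. Promoters are the 300 bases before the annotated gene start in TAIR10.1, which RefSeq distributes. Counting intervals are exact 95% intervals of a ratio of read sums.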

Additional observations from a re-analysis of the deposited data

How the results depend on the processing

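The number of members called stayed at 9 or 10 with heat in wild type and in prp43a, and at 0 in both genotype comparisons and for the difference of the responses, over pseudocounts of 0.1 and 5, no filter, median-of-ratios scaling, quantile normalization, only the 4 libraries of a comparison (not possible for the difference of the responses), voom on recovered reads, and each of the 8 libraries left out. With the replicate block, 10 were called in wild type and 10 in prp43a, where HSFA7A passed (limma adjusted p = 0.030), and no other member call changed. Of 19697 tested genes, 8342 were called higher in wild type in the main fit and 6670 under median-of-ratios scaling. HSFA6B and HSFA7B, which entered the main fit only through their heat libraries, are among the members counted. Nothing is therefore read from the number of members called with heat. Same-numbered replicates deviated from their group means with correlations of -0.0276 to 0.0283 between groups, taken over all tested genes. Counting error lowers such correlations, so they cannot tell whether same-numbered libraries shared a batch. Of 788 member values under the alternatives, 3 lost and 5 gained a call (HSFA7A and HSFA7B), none of the called values changed sign, and 35 values that passed in neither fit had the other sign. Genes at a few TPM rest on few reads, which limits HSFA6B and HSFA7B most. The cause of the changed calls was not tested.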
